A study of Mus musculus with 4 samples.

Results

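Of the 32285 genes counted in the series 10 are described here, namely the 5 Rel subunits of the transcription factor NF-κB (Nfkb1, Nfkb2, Rel, Rela and Relb) and 5 genes that restrain or tune it (Nfkbia, Nfkbib, Nfkbie, Nfkbiz and Tnfaip3). The 10 genes were chosen by symbol, each symbol matched 1 gene, and their raw counts were summed in 8 classes of cells defined by marker genes: macrophage, neutrophil, dendritic, T, B, endothelial, fibroblast and follicular. The cells came from thyroids of C57BL/6 mice aged 5, 10, 20 and 30 days after birth and were sequenced in droplets, where each transcript is counted by its unique molecular identifier (UMI). The labels name no treatment or genetic change, and 10 mice gave 1 library per age, so animals cannot be told apart and an age has no replicate. All cells had passed through enzymatic digestion at 37°C and removal of dead cells.

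NF-κB proteins act as pairs of Rel subunits that are held in the cytoplasm by inhibitors of the IκB family. Signals from receptors such as those for TNF, interleukin 1 and bacterial products activate a kinase that marks the inhibitors for destruction, and the freed pairs enter the nucleus. Many of the genes they switch on encode inhibitors and subunits of the same pathway, so that the response limits itself, and the pathway is best known in immune cells.

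On GRCm38 the annotation gives all 10 genes as protein coding. Nfkb1 lies on chromosome 3 (135584655 to 135691547, minus strand), Rel on chromosome 11 (23736847 to 23770970, minus), and Rela (5637483 to 5648130, plus) and Nfkb2 (46304320 to 46312385, plus) on chromosome 19. Relb (19606217 to 19629438, minus) and Nfkbib (28758251 to 28767512, minus) lie on chromosome 7. Nfkbia is on chromosome 12 (55489410 to 55492647, minus), Nfkbie on chromosome 17 (45555703 to 45563169, plus), Nfkbiz on chromosome 16 (55811375 to 55838899, minus) and Tnfaip3 on chromosome 10 (19000910 to 19015657, minus).

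Promoters from RefSeq (GRCm38.p6) were read for 7 of the 10 genes, as 300 bases from 250 before to 50 after a start site, with 10 windows in all because Nfkb2 has 3 start sites and Tnfaip3 has 2. Shown are 4 windows that hold the κB consensus, from an inhibitor, 2 subunits and Tnfaip3, and beside them that of Rela, as 1 of the windows that hold none. Capitals mark matches to the κB consensus, the 10-base motif bound by NF-κB pairs, on either strand. The windows are chr12:55492598-55492897 (minus) for Nfkbia, chr19:46304487-46304786 (plus) for Nfkb2, chr11:23770920-23771219 (minus) for Rel, chr10:19015361-19015660 (minus) for Tnfaip3 and chr19:5637291-5637590 (plus) for Rela.
Nfkbia: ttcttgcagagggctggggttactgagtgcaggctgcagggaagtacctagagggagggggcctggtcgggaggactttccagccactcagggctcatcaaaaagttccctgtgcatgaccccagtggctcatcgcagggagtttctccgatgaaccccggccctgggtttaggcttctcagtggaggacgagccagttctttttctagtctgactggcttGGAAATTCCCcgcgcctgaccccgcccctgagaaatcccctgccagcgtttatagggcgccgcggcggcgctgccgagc
Nfkb2: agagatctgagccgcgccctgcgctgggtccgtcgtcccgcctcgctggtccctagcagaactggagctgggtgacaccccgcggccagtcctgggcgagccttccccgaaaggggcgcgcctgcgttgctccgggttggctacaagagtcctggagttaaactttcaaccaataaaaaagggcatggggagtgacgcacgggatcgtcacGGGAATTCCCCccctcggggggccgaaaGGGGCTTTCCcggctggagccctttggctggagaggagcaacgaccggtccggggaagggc
Rel: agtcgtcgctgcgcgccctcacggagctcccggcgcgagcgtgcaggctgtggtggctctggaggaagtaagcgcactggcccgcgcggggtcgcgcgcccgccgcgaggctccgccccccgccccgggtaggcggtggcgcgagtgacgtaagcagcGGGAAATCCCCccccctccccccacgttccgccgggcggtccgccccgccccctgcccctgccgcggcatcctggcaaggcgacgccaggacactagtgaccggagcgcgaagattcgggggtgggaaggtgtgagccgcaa
Tnfaip3: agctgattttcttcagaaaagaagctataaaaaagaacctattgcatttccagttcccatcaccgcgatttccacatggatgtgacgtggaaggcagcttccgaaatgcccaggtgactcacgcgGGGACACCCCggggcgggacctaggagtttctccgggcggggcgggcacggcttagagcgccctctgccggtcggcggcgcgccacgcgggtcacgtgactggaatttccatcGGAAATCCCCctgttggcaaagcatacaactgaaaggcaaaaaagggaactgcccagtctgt
Rela: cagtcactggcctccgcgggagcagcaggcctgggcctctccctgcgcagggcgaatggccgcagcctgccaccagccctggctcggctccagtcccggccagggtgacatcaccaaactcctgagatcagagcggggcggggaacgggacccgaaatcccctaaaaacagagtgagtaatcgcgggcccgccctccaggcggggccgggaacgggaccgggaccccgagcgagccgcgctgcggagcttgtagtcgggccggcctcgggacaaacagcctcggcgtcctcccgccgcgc
The Nfkbia window held 1 match, which began 29 bases before the start site. The Nfkb2 window held 3, of which the first 2 overlap in all but 1 base, the Rel window held 2 that overlap in the same way, and the Tnfaip3 window held 2 separate ones. The windows of Rela and Nfkbib and the other window of Tnfaip3 (chr10:19011914-19012213, minus) held none. In all, 7 of the 10 windows held a match, where 2 of the Nfkb2 windows overlap and hold the same match, against 4.51% of 32851 windows of the same length over all genes. A match describes the sequence and does not show that a protein binds there.

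The 4 libraries held 54921806 to 89039113 UMIs in 1745460 to 2258644 barcodes, most of them droplets without a cell. After the filters 23114 cells were kept, with medians of 2555 to 4233 UMIs per library, and 19225 of them fell into the 8 classes. The labels of age are used as given, and H19, a growth-related RNA that normally falls after birth, went against them: in fibroblasts it was at 64.7 CPM (UMIs scaled to a total of 1000000 per class and library) at day 5, 525 at day 10, 70.3 at day 20 and 2004 at day 30. The libraries labelled day 10, 20 and 30 also shared barcodes, since 98.99% to 99.73% of the cell barcodes of one were also found in another when the matrices were taken pair by pair, with medians of 8 to 12 UMIs there, and at most 30 barcodes counted as cells in a pair of libraries. Thyroglobulin (Tg), the hormone precursor that defines follicular cells, was at 30161 to 52367 CPM in the follicular class and at 210.3 to 1655 in the others. A cluster of 1019 cells with a median of 961 UMIs and some follicular genes stayed unnamed and is in no class.

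Levels below are in CPM. Classes were compared on sums of UMIs per class and library with at least 20 cells, which left 29 of 32 sums, since neutrophils of the library labelled day 20 and dendritic cells of those labelled day 20 and day 30 were too few. Each class was compared with the mean of the other 7, and the follicular class also with the mean of the 3 myeloid classes (macrophage, neutrophil and dendritic) and with the mean of endothelial cells and fibroblasts. A gene was called where the adjusted p of edgeR's quasi-likelihood test was under 0.05, over 13117 genes tested, and all 10 genes were among these. The libraries stand in for replicates of a class and enter the fit as a block, so the test covers how class differences vary between libraries. Each library is a pool of mice of another age, so this spread mixes age with pool.

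None of the 10 genes was called higher in endothelial cells, fibroblasts or the follicular class, and the immune classes differed in how many were. In macrophages 6 of the 10 were higher than in the other classes and none lower, where 27.5% of all genes were called higher and 6.61% lower. In neutrophils 6 were higher and none lower (all genes 11.2% and 20.6%), and in dendritic cells 8 were higher and none lower (16.1% and 2.91%). T cells had 4 higher and 2 lower (33.6% and 12.6%), and B cells had 6 higher and 1 lower (19.5% and 13%). In endothelial cells none was higher and 8 were lower (30.6% and 14.5%), in fibroblasts none was higher and 9 were lower (33.7% and 18.3%), and in the follicular class none was higher and 6 were lower (35.6% and 17%). The medians of the 10 log2 fold changes were 0.46 in macrophages, 1.06 in neutrophils, 1.12 in dendritic, 0.07 in T, 1.02 in B, -1.06 in endothelial cells, -1.72 in fibroblasts and -0.92 in the follicular class. Over all genes the medians were 0.24, -1.24, 0.10, 0.27, -0.06, 0.19, 0.19 and 0.27 in the same order. Without the library labelled day 5, the count fell from 6 to 3 in macrophages, from 8 to 4 in dendritic cells and from 6 to 3 in T cells, and without that labelled day 10 it fell from 8 to 4 in dendritic cells. Since the dendritic class has 2 sums, each of these fits holds 1 dendritic library, assumed to vary like the other classes, and a dendritic call lost there does not show that it depended on the library left out. The shares of all genes fell too: without day 5, 23.5% were higher and 3.84% lower in macrophages, 9.03% and 0.925% in dendritic and 29.7% and 8.65% in T cells, and without day 10, 9.57% and 0.516% in dendritic cells. In T cells the 4 and 2 of 10 are near the shares of all genes. The T class was made up of different clusters in different libraries. Cluster 31, with Rag1 among its leading genes, held 0 of 496 T cells in day 5 and 2526 of 3664 in day 20. Cluster 26, led by Trdc, held 343 and 50. The part of this make-up in the T cell calls was not tested. Scaled by total UMIs in place of TMM factors, 3 were higher and none lower in macrophages (all genes 22.7% and 9.48%), again near the share of all genes, and 4 and none in dendritic cells (11.1% and 7.30%). Of the 72 calls over the 10 comparisons none changed direction in any of 14 alternatives.

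**Figure D1:**
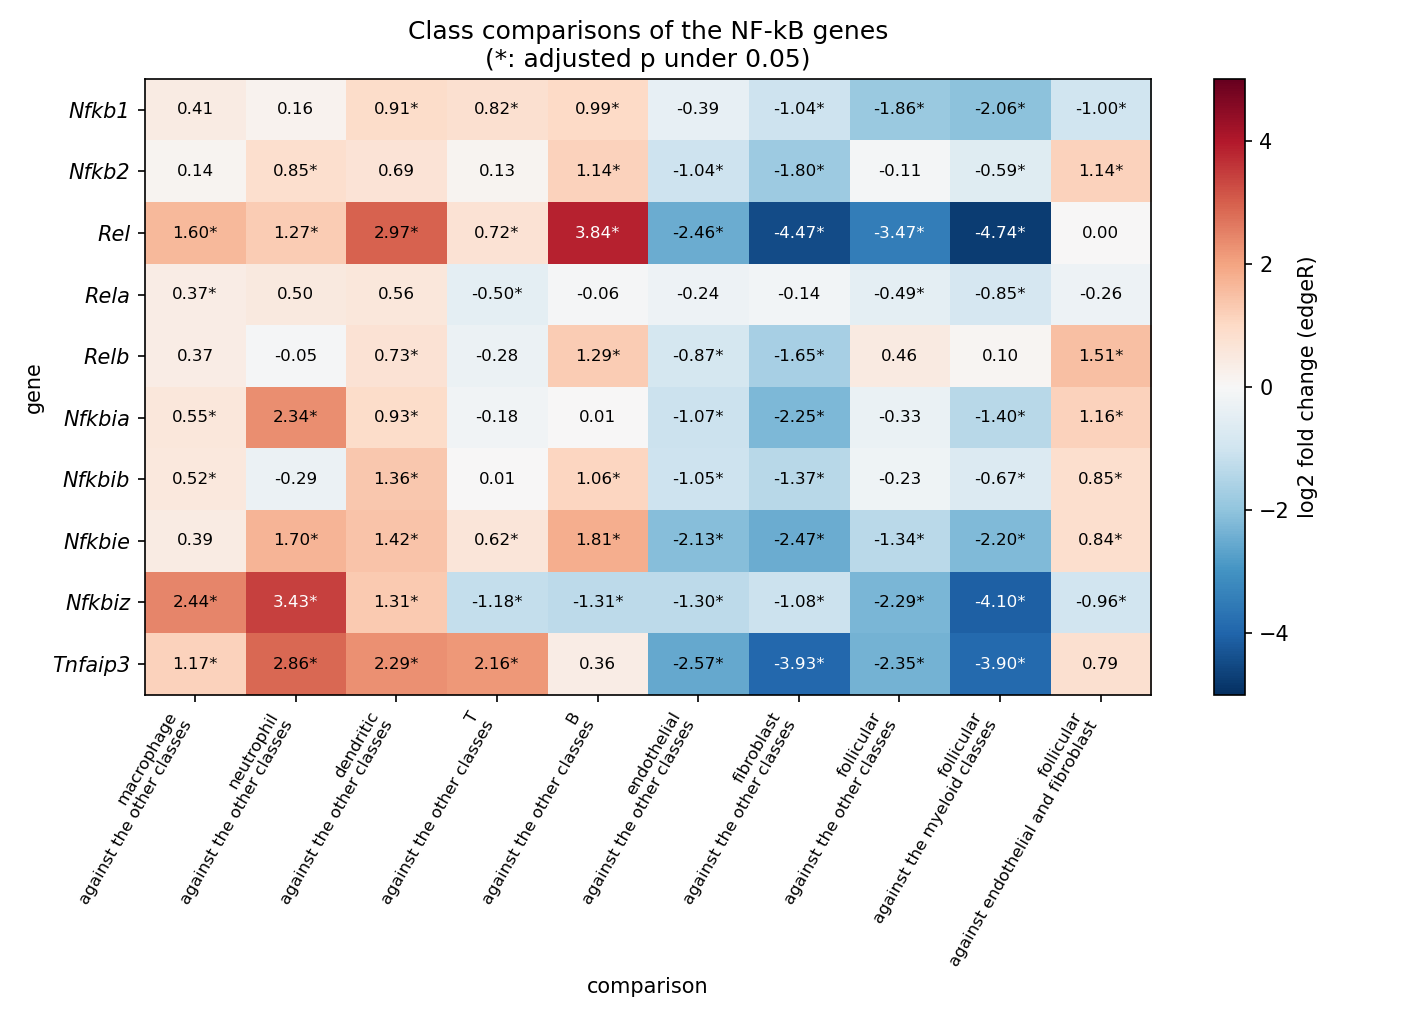
Heat map of log2 fold changes (edgeR) of the 10 NF-κB genes (rows) in the 10 class comparisons (columns); an asterisk marks an adjusted p under 0.05. The endothelial and fibroblast columns are blue throughout, that of the follicular class against the myeloid classes is blue but for Relb, down to -4.74 for Rel, and the deepest red is 3.84 for Rel in B cells.

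Among the Rel subunits, Rel, which encodes c-Rel, the subunit of lymphocyte and myeloid activation, differed most between classes. In B cells it stood at 819 CPM in the library labelled day 5, 794 in day 10, 834 in day 20 and 635 in day 30, and in dendritic cells 416 in day 5 and 410.4 in day 10. In fibroblasts it was 7.45, 4.01, 2.46 and 10.4 in the order of the labelled ages, and in the follicular class 9.54, 16.6, 16.3 and 3.29. B cells stood above every other class in all libraries, dendritic cells came next without overlap, and the ranges of macrophages, neutrophils and T cells (means 199, 163 and 119) overlapped. The follicular class and fibroblasts also overlapped, while endothelial cells (16.9 to 23.5) lay above both without overlap. The gap to the follicular class was small (16.9 against 16.6), and counting error can cover it. The follicular level of 3.29 rested on 2 UMIs. The mean in B cells was 127 times that in fibroblasts. The log2 fold change in B cells was 3.84 ± 0.20 (approximate SE, edgeR, adjusted p = 1.80e-14), that in dendritic cells was 2.97 ± 0.27, and that in fibroblasts was -4.47 ± 0.36. Rel was also higher in macrophages (1.605 ± 0.22), neutrophils (1.27 ± 0.34) and T cells (0.72 ± 0.23) and lower in endothelial cells (-2.46 ± 0.29). The call in T cells was lost without the library labelled day 5, with a log2 fold change of 0.58.

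Nfkb1 encodes p105, which is cut to the subunit p50 and is itself an inhibitor before it is cut. Its level was highest in B cells (111, 174, 161 and 215 CPM in the order of the labelled ages) and T cells (222, 154, 167 and 93.2), which overlapped. From B cells down to endothelial cells (82.0 to 98.6) each class overlapped the next, and only fibroblasts (49.2 to 67.4) and the follicular class (19.7 to 45.0) stood apart below. In the follicular class its values were 36.8, 45.0, 38.1 and 19.7, the lowest of the 8 classes, and its log2 fold change was -1.86 ± 0.24 (edgeR, adjusted p = 2.05e-07). Nfkb1 was higher in B (0.99 ± 0.19), dendritic (0.91 ± 0.26) and T cells (0.82 ± 0.18) and lower in fibroblasts (-1.04 ± 0.21). The T cell call was lost without the library labelled day 5 (0.52), and with 1 dendritic library left the dendritic value was not called, at 0.87 without day 5 and 0.96 without day 10.

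Rela encodes p65, the subunit that with p50 forms the pair used by most inflammatory signals, and it was the flattest of the 10. Its class means ran from 59.2 CPM in neutrophils to 32.8 in T cells, a ratio of 1.81, and each class overlapped the next in the order. Follicular cells had levels of 28.4, 34.3, 51.7 and 39.4 in the order of the labelled ages. It was called lower in T cells (-0.50 ± 0.15) and the follicular class (-0.49 ± 0.16) and higher in macrophages (0.37 ± 0.14). The follicular call was lost when scaled by total UMIs (-0.33) and without the upper limit on UMIs per cell (-0.28). The macrophage call passed narrowly (edgeR, adjusted p = 0.0427) and was lost without the library labelled day 5 (0.32), day 10 (0.35) or day 30 (0.36), and that in T cells was lost without day 30 (-0.45).

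Nfkb2 and Relb encode p100, the precursor of p52, and RelB, the pair of the alternative pathway that acts downstream of receptors such as those for lymphotoxin and CD40. In CPM both differed from the other subunits in the place of the follicular class. Relb was at 42.0, 66.5, 84.4 and 52.6 CPM in follicular cells in the order of the labelled ages, and at 83.6, 71.1, 115 and 78.6 in B cells, the only class with a higher mean, and the 2 ranges overlapped. In the myeloid classes its level was 29.8 to 55.8, in endothelial cells 25.4 to 30.9, and in fibroblasts 13.2 to 19.6, below all others. Nfkb2 was at 31.3, 39.1, 65.3 and 39.4 in follicular cells, behind only the means of B cells (40.7 to 103) and neutrophils (44.0 to 109), and only endothelial cells (21.7 to 27.2) and fibroblasts (11.0 to 16.5) stood apart below. The Nfkb2 means of follicular, dendritic and T cells were close, at 43.8, 43.7 and 43.5. With the TMM factors of the fit the order differed, and neither gene was called in the follicular class (Relb 0.46 ± 0.16, Nfkb2 -0.11 ± 0.18). There Relb was also above the follicular value in dendritic cells, and Nfkb2 in dendritic cells (0.69), macrophages (0.14) and T cells (0.13). Relb was higher in B cells (1.29 ± 0.16) and dendritic cells (0.73 ± 0.23) and Nfkb2 in B cells (1.14 ± 0.18) and neutrophils (0.85 ± 0.31), and both were lower in endothelial cells and fibroblasts. The neutrophil call of Nfkb2 was lost without the library labelled day 10 (0.41) and with 1 dendritic library left Relb was not called there, at 0.51 without day 5 and 0.89 without day 10.

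**Figure D2:**
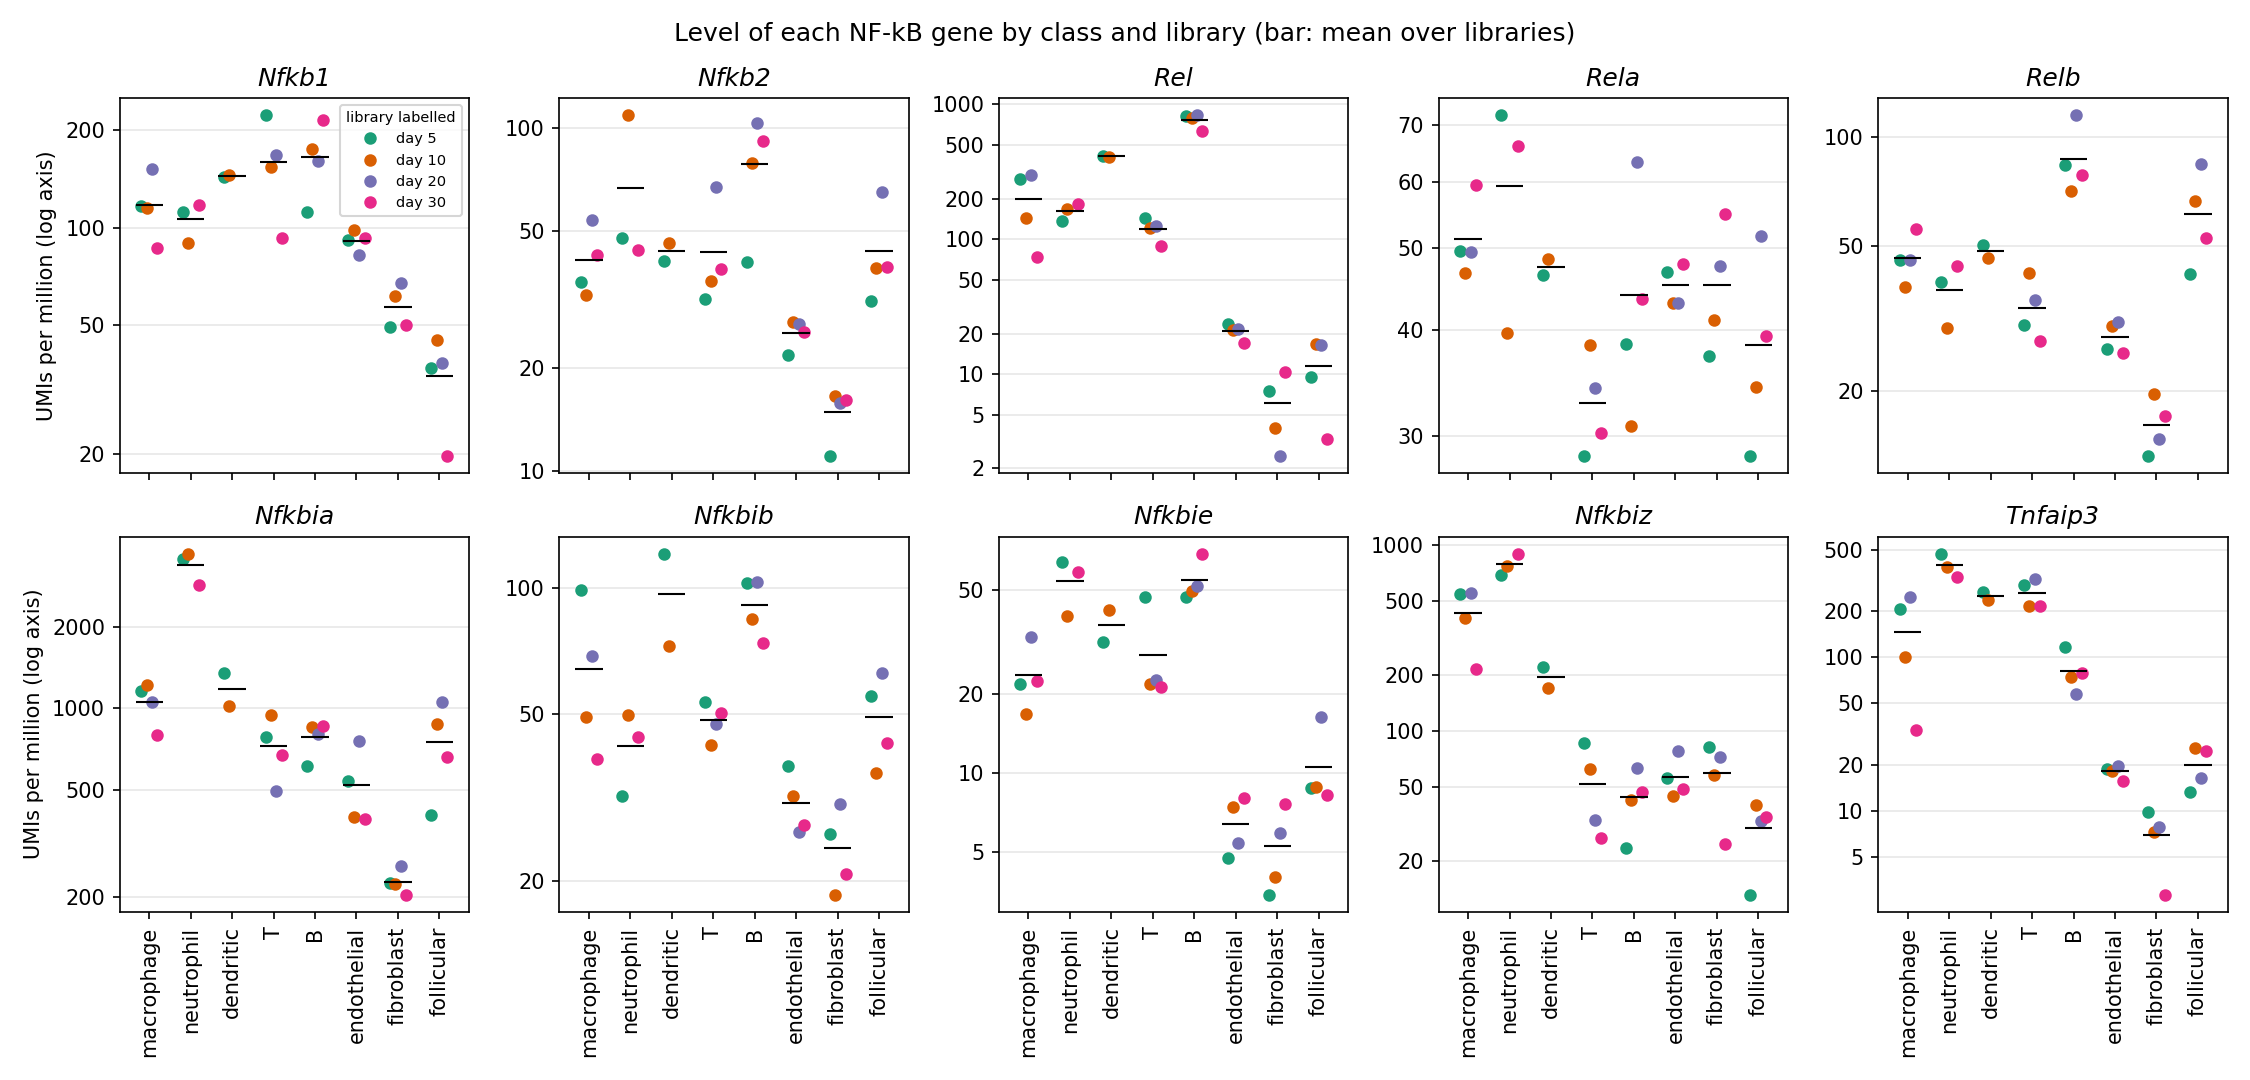
Level of each gene (CPM, log axis) in each class, 1 point per library coloured by its labelled age, with a bar at the mean over libraries. Rel spans from 2.46 in fibroblasts to 834 in B cells, while every Rela point lies between 28.4 and 71.9, and neutrophils top Nfkbia, Nfkbiz and Tnfaip3.

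Nfkbia, Nfkbib and Nfkbie encode IκBα, IκBβ and IκBε, the inhibitors that hold the pairs in the cytoplasm. Nfkbia, which NF-κB itself switches on, was at 3549 CPM in neutrophils of the library labelled day 5, 3727 in day 10 and 2855 in day 30. In macrophages it was at 1162, 1217, 1057 and 797, in the follicular class at 404, 878, 1059 and 660.4, and in fibroblasts at 226, 224, 261 and 205, in the order of the labelled ages. Neutrophils stood above and fibroblasts below every other class in all libraries, and the 6 classes between overlapped their neighbours. The log2 fold change was 2.34 ± 0.18 in neutrophils (edgeR, adjusted p = 4.66e-11) and -2.25 ± 0.22 in fibroblasts (adjusted p = 1.88e-09). It was 0.93 ± 0.24 in dendritic cells, 0.55 ± 0.18 in macrophages and -1.07 ± 0.20 in endothelial cells, and in the follicular class it was -0.33 ± 0.19 and was not called. The macrophage call was lost without the library labelled day 5 (0.48) or day 10 (0.48) and the dendritic value was not called with day 10 as its only library (0.58).

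Nfkbib was highest in dendritic cells (121 CPM in the day 5 library and 72.8 in the day 10 library) and B cells (103, 84.1, 103 and 73.8) and lowest in fibroblasts (18.6 to 30.5), and each class overlapped the next in the order. It was higher in dendritic cells (1.36 ± 0.22), B cells (1.06 ± 0.17) and macrophages (0.52 ± 0.16), the last not without the library labelled day 5 (0.26), and lower in endothelial cells (-1.05 ± 0.17) and fibroblasts (-1.37 ± 0.18). Nfkbie was at 47.2, 49.8, 51.7 and 68.9 in B cells and at 63.9, 39.8 and 58.7 in neutrophils of the libraries labelled day 5, 10 and 30. The follicular class (8.71, 8.81, 16.3 and 8.21) lay below every immune class and above endothelial cells (4.73 to 7.99) without overlap, and endothelial cells overlapped fibroblasts (3.42 to 7.58). The gaps were small: 8.21 rested on 5 UMIs and 7.99 on 17, and the lowest value in macrophages was 16.9. Counting error can cover both gaps. Nfkbie was called in 7 of the 8 classes, higher in B cells (1.81 ± 0.23), neutrophils (1.70 ± 0.42), dendritic (1.42 ± 0.32) and T cells (0.62 ± 0.22). It was lower in fibroblasts (-2.47 ± 0.28), endothelial cells (-2.13 ± 0.26) and the follicular class (-1.34 ± 0.29). Its level in T cells rested on the library labelled day 5 (46.8, against 21.2 to 22.7 in the others), without which the log2 fold change was 0.05, and its dendritic value was not called with day 5 as its only library (1.204).

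Nfkbiz encodes IκBζ, a nuclear protein induced by interleukin 1 and Toll-like receptors that acts with NF-κB on later genes of the response. Its level was 687, 765 and 895 CPM in neutrophils of the libraries labelled day 5, 10 and 30, and 546, 404, 551 and 216 in macrophages of day 5, 10, 20 and 30. In dendritic cells it was 221 and 169.9, and in the other 5 classes 13.2 to 85.8. Neutrophils stood above all classes, macrophages and dendritic cells overlapped, and the 3 myeloid classes lay above the other 5 in all libraries. The log2 fold change was 3.43 ± 0.29 in neutrophils (edgeR, adjusted p = 1.85e-10), 2.44 ± 0.23 in macrophages and 1.31 ± 0.36 in dendritic cells. It was negative and called in T, B, endothelial, fibroblast and follicular cells, from -1.08 in fibroblasts to -2.29 in follicular cells, and with 1 dendritic library left the dendritic value was not called, at 1.08 without day 5 and higher than in the fit of both without day 10.

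Tnfaip3 encodes A20, a ubiquitin-editing enzyme that shuts down the signal upstream of the IκB kinase. Its level was 472, 388 and 330.3 CPM in neutrophils of the libraries labelled day 5, 10 and 30 and 294, 216, 323 and 215 in T cells of all 4. In macrophages it was 205, 100.2, 245 and 33.3, the widest spread of the 10 genes in any class (SD of log2 levels 1.29), and in fibroblasts it was 9.78, 7.27, 7.87 and 2.84. Neutrophils stood above the rest, T cells overlapped dendritic cells, B cells (57.5 to 116) stood above the follicular class (13.2 to 25.4), and fibroblasts lay below all others. It was higher in neutrophils (2.86 ± 0.30), dendritic (2.29 ± 0.31), T (2.16 ± 0.22) and macrophage sums (1.17 ± 0.24), with adjusted p from edgeR of 1.47e-08, 2.01e-06, 1.15e-08 and 0.000356. Summed endothelial markers were at 1815 CPM in the T cells of the library labelled day 10, against 131 to 188 in the other three, and without that library Tnfaip3 stayed called at 2.27. It was lower in fibroblasts (-3.93 ± 0.36), endothelial (-2.57 ± 0.32) and follicular cells (-2.35 ± 0.35).

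RNA free in the droplets was measured in barcodes of 10 to 100 UMIs and held all 10 genes, with Nfkbia at 260 to 385 CPM of free RNA and Nfkbie at 4.13 to 14.2. Taking all Tg in the 7 other classes, and all Col1a1, Col1a2, Col3a1 and Dcn in the follicular class, as free RNA, at most 1.91% to 12.4% of the UMIs of a class and library came from that source. Set against the levels, it could give under 10% of a gene's level in 272 of 290 values, and 20% or more in 7. These were values of Tnfaip3, Rel and Nfkbie in endothelial cells, fibroblasts or the follicular class, with the highest 38.8% for Rel in fibroblasts.

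The share of cells with a UMI depended on depth as well as level. Nfkbia had a UMI in 78.5% to 93.2% of neutrophils, 72.9% to 96.2% of follicular cells and 46.8% to 65.0% of fibroblasts, the class with its lowest level. With each cell thinned to 1000 UMIs the shares were 75.4% to 81.4%, 27.9% to 53.8% and 12.7% to 17.8%. Thinning left out 26 of 205 neutrophils, 6 of 1817 follicular cells and 76 of 2541 fibroblasts with fewer UMIs. Rel had a UMI in 38.3% to 50.6% of thinned B cells, 7.85% to 22.4% of thinned macrophages and at most 2.0% of thinned fibroblasts and 0.92% of thinned follicular cells. Tnfaip3 had one in 20.2% to 27.7% of thinned T cells and at most 1.92% of thinned follicular cells, against at most 0.90% in fibroblasts. Thinned follicular cells with Relb made up 3.70% to 7.69%, against 0.83% to 2.78% in fibroblasts. The thinned shares of Rel in follicular cells lay within the range of fibroblasts, the class with its lowest level.

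The follicular class was also set against the cells that surround it, since the study asks about signals from myeloid cells to follicular cells. Against the 3 myeloid classes, 9 of the 10 genes were lower in the follicular class and none was higher, where 36.7% of all genes were called higher and 16.2% lower. The largest differences were those of Rel (-4.74 ± 0.39), Nfkbiz (-4.10 ± 0.41) and Tnfaip3 (-3.90 ± 0.39), with adjusted p from edgeR of 9.85e-11, 4.01e-09 and 3.89e-09, and the median over the 10 genes was -1.73 against 0.56 over all genes. Nfkbie (-2.20), Nfkb1 (-2.06), Nfkbia (-1.40), Rela (-0.85), Nfkbib (-0.67) and Nfkb2 (-0.59) were lower by less. Relb was not called, with a log2 fold change of 0.10 ± 0.20. The calls of Nfkbib and Nfkb2 were lost without the library labelled day 10 (-0.61 and -0.50) and when scaled by total UMIs (-0.39 and -0.32). That of Nfkb2 was also lost without the library as a block (-0.50) and with at most 5% mitochondrial UMIs (-0.46).

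Against endothelial cells and fibroblasts, 5 genes were higher in the follicular class and 2 lower, where 26.5% of all genes were called higher and 22.8% lower. Higher were both genes of the alternative pathway, Relb (1.51 ± 0.17, adjusted p from edgeR 5.02e-08) and Nfkb2 (1.14 ± 0.20), and the 3 cytoplasmic inhibitors Nfkbia (1.16 ± 0.20), Nfkbib (0.85 ± 0.19) and Nfkbie (0.84 ± 0.32). Lower were Nfkb1 (-0.999 ± 0.24) and Nfkbiz (-0.96 ± 0.37). Tnfaip3 (0.79 ± 0.37) and Rela (-0.26 ± 0.17) were not called, and for Rel the log2 fold change was 0.00, with the sign depending on the setting. The call of Nfkbie was lost without the library labelled day 5 (0.60), day 10 (0.90) or day 20 (0.77), and that of Nfkbiz without day 5 (-0.65) or day 20 (-0.94). With at most 5% mitochondrial UMIs both calls were lost (Nfkbie 0.51, Nfkbiz -0.35). That of Nfkbie was also lost in DESeq2 (0.83) and without the filter on low counts (0.73). Summed macrophage markers were at 32.7 to 60.6 CPM in the follicular class, against 22093 to 23638 in macrophages, and summed neutrophil markers at 2.80 to 5.44, against 114233 to 134917 in neutrophils.

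With 1 library per age, differences between ages were described for the libraries labelled day 30 and day 5 with exact 95% intervals that cover counting error only, and dendritic cells were left out, with 5 cells at day 30. Beyond counting error 6 genes were lower and none higher in macrophages and in T cells, 4 were higher and 2 lower in B cells, and 3 were higher and 1 lower in the follicular class. Of all genes with at least 10 CPM, 37.2% were higher and 11.4% lower in macrophages, 45.7% and 22.1% in T cells, 11.6% and 9.80% in B cells, and 15.8% and 10.1% in the follicular class. One gene was lower in neutrophils, 2 were lower in endothelial cells, and 1 was higher and 2 lower in fibroblasts, where 5.33%, 26.4% and 22.4% of all genes were higher and 5.45%, 20.6% and 14.6% lower in the same order. Without the upper limit on UMIs per cell, the count was 8 in the follicular class (7 higher), 6 in endothelial cells (4 higher), 5 in fibroblasts (3 higher) and 2 in neutrophils (none higher). In that setting 57.6% of all genes were higher and 20.0% lower in the follicular class, 40.3% and 27.5% in endothelial cells, 37.4% and 22.8% in fibroblasts and 6.38% and 9.82% in neutrophils, so in the first 3 of these the counts are near the shares of all genes. Dendritic cells were numerous enough there, with 7 genes lower and none higher (22.9% of all genes higher and 12.8% lower).

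**Figure D3:**
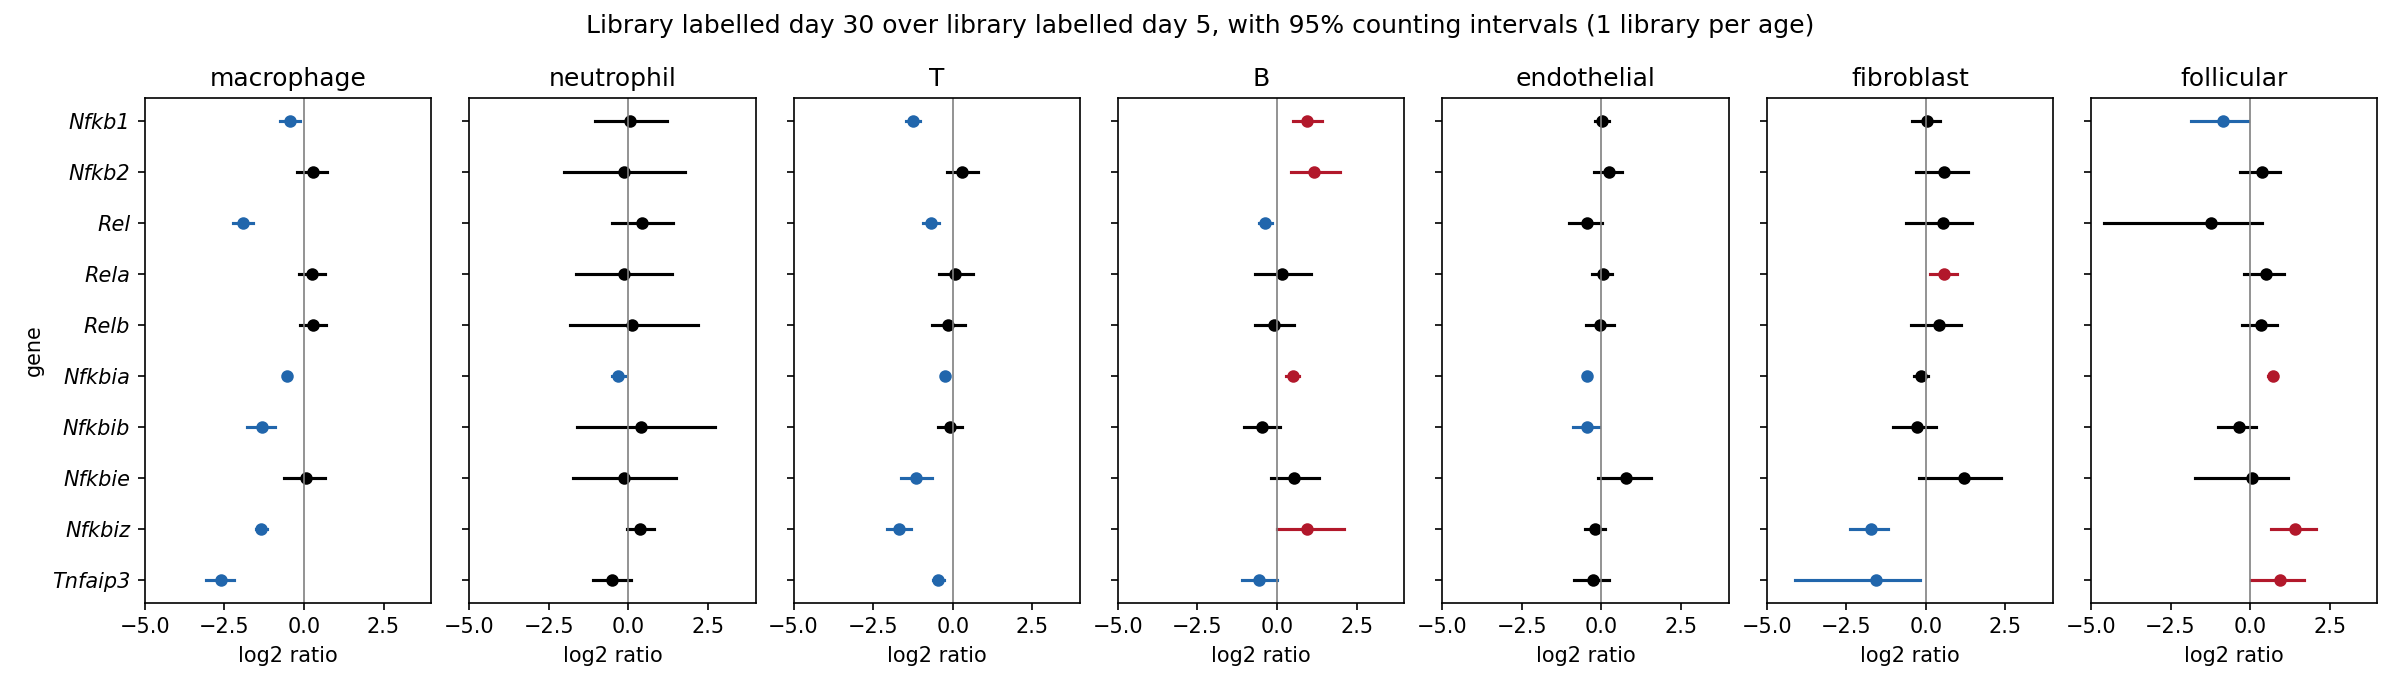
Log2 ratio of the level in the library labelled day 30 to that in the library labelled day 5 for each gene and class, with exact 95% intervals for counting error; red and blue mark intervals above and below 0. Macrophages and T cells have 6 blue genes each and no red one, while the follicular class has 3 red ones, led by Nfkbiz at 1.42.

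In the follicular class Nfkbia was at 404 CPM in the library labelled day 5 (3897 UMIs), compared with 660.4 in the one labelled day 30 (402 UMIs), a log2 ratio of 0.71 (0.56 to 0.86). Nfkbiz was at 13.2 and 34.5 (1.42, 0.65 to 2.06) and Tnfaip3 at 13.2 and 24.6 (0.95, 0.02 to 1.68), while Nfkb1 was lower, at 36.8 and 19.7 (-0.84, -1.87 to -0.08). These values rest on the follicular cells of at most 10000 UMIs: without that limit and clustered anew, the class held 3728 cells in place of 1817, with 2392 in place of 1516 at day 5 and 528 in place of 97 at day 30 by label. Without the limit the library labelled day 30 also had 752 fibroblasts in place of 159 and 498 macrophages in place of 214. The library labelled day 5 was the lowest of the 4 for Nfkbia, Nfkbiz, Relb, Nfkb2, Rela and Tnfaip3. For Nfkbia the levels in the libraries labelled day 10 (878) and day 20 (1059) were above that labelled day 30, so the order did not follow age. The summed level of 15 immediate-early and heat-shock genes, which are known to rise when cells are handled, was 7793, 11202, 9033 and 8449 CPM in the order of the labelled ages, also lowest in day 5. The median share of mitochondrial UMIs, a sign of RNA quality, was 3.88%, 5.12%, 7.58% and 5.12%, lowest in day 5 and highest in day 20 like Nfkbia. The part of either in the difference was not tested. Day 5 also had a lower median mitochondrial share than day 30 in macrophages (2.25% and 4.15%), T (2.47% and 4.41%), B (3.28% and 5.25%), endothelial cells (2.24% and 3.64%) and fibroblasts (1.93% and 3.17%), and a higher one in neutrophils (1.31% and 0.575%).

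In macrophages Tnfaip3 was at 205 CPM in the library labelled day 5, compared with 33.3 in the one labelled day 30 (log2 ratio -2.61, -3.08 to -2.19). Rel was at 278 and 73.9 (-1.90, -2.22 to -1.61), Nfkbiz at 546 and 216 (-1.34, -1.52 to -1.16) and Nfkbib at 99.1 and 39.1 (-1.33, -1.78 to -0.92). Nfkbia (-0.54) and Nfkb1 (-0.43) differed by less, and Nfkb2, Rela, Relb and Nfkbie stayed within counting error. The library labelled day 20 resembled that labelled day 5 in Rel (299) and Tnfaip3 (245), and that labelled day 10 lay between. The immediate-early and heat-shock sum was 15880, 14756, 18440 and 9012 CPM in the order of the labelled ages, lowest in day 30. Summed markers of dendritic cells were at 12895, 864, 9307 and 273 CPM in the macrophage class, high in the same 2 libraries as Rel and Tnfaip3. This list includes the MHC class II genes H2-Aa and H2-Ab1, which are also among the leading genes of macrophage cluster 9. The part of either sum was not tested.

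The clusters that make up the macrophage class had different shares in the libraries. Cluster 9, led by Ccl4, Cxcl2 and MHC class II genes, held 606 of 972 macrophages in the library labelled day 5, 93 of 732 in day 10, 101 of 202 in day 20 and 11 of 214 in day 30. Cluster 13, led by C1qa, Lyz2, Pf4 and Mrc1, held 262, 552, 76 and 157. Cluster 12, led by C1qa, C1qb and H2-Eb1, held the remaining 104, 87, 25 and 46, and over all libraries its levels of Nfkbia (217 CPM), Nfkbiz (32.5) and Rel (25.3) were low, while Relb was at 65.0 (46.1 in cluster 9 and 42.4 in cluster 13), Nfkb2 at 39.7 (46.1 and 33.2) and Nfkbie at 36.1 (30.2 and 16.2), on 10 to 18 UMIs for each of these 3. In cluster 9 the level of Rel was 415 CPM at day 5, 345 at day 10 and 515 at day 20 by label, and in cluster 13 at 77.5, 121, 88.7 and 77.6 in all 4. Tnfaip3 was at 293, 282 and 379 in cluster 9 and at 79.2, 78.0, 121 and 34.4 in cluster 13, and Nfkbiz at 721.5, 569 and 751 against 302, 391, 378 and 226. All values of these 3 genes in cluster 9 lay above all in cluster 13, as did those of Nfkb1 (139.9 to 176 against 86.1 to 134), Nfkbia (1308 to 1568 against 800.1 to 1192), Nfkbib (73.1 to 136 against 32.1 to 46.9) and Nfkbie (26.4 to 39.3 against 10.2 to 24.5). Nfkb2, Rela (41.2 to 52.8 against 46.3 to 62.4) and Relb overlapped. Within cluster 13 the level of Rel in the library labelled day 30 was close to that in day 5, and Tnfaip3 and Nfkbiz remained lower in day 30. The 10 genes had no part in the clustering, but clusters were formed on the same cells, so these differences were not tested.

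**Figure D4:**
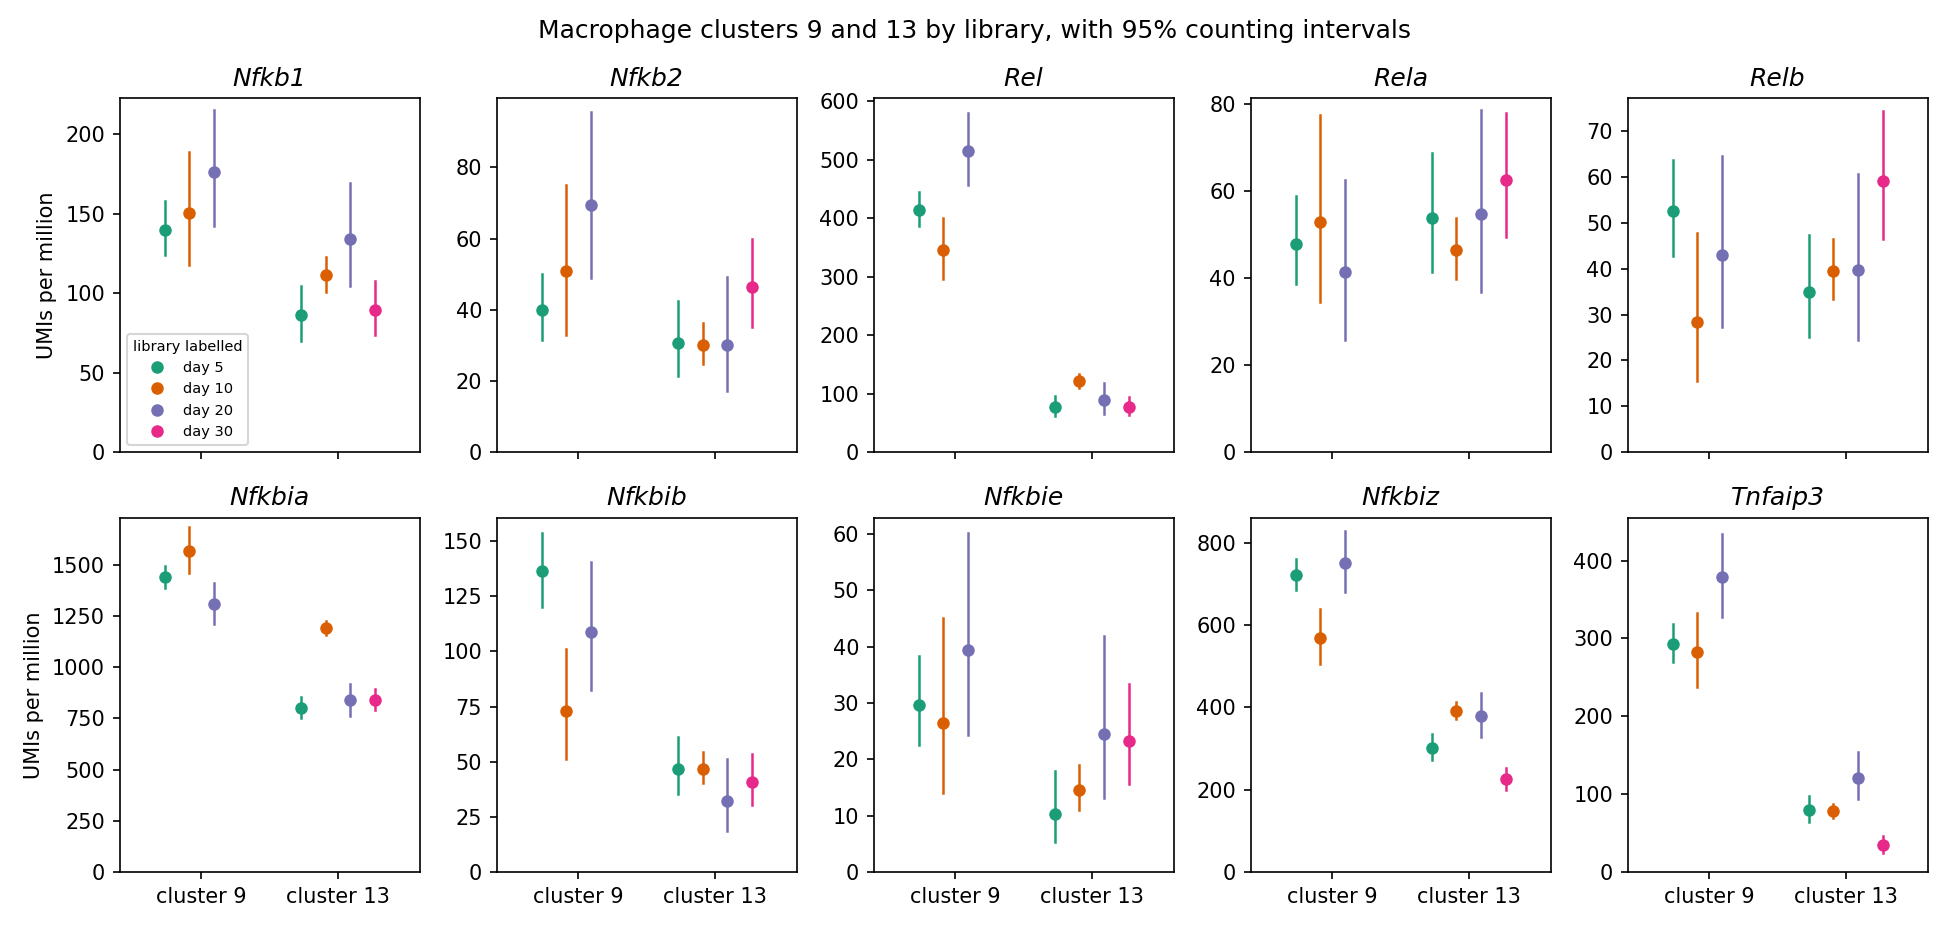
Level (CPM) of each gene in the macrophage clusters 9 and 13, 1 point per library with its exact 95% interval for counting error; the 11 cells of cluster 9 in the library labelled day 30 are left out. Rel lies at 345 to 515 in cluster 9 and at 77.5 to 121 in cluster 13, while the intervals of Rela overlap.

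In T cells Nfkbiz was at 85.8 CPM in the library labelled day 5, compared with 26.6 in the one labelled day 30 (log2 ratio -1.69, -2.07 to -1.30), Nfkb1 at 222 and 93.2 (-1.25, -1.47 to -1.04) and Nfkbie at 46.8 and 21.2 (-1.14, -1.62 to -0.66). Rel, Tnfaip3 and Nfkbia were lower by 0.67, 0.45 and 0.23 on the log2 scale. The classes differed in make-up here too: cluster 31, with Rag1 and Ccr9 among its leading genes, held none of the 496 T cells of the library labelled day 5, 2526 of 3664 in day 20 and 767 of 1154 in day 30, while cluster 26, led by Trdc and Cd163l1, held 343 in day 5 and 17 in day 30. Nfkb1 was at 267 CPM in cluster 26 over all libraries and at 128 in cluster 31, and Nfkbie at 48.6 and 23.1. Nfkbiz was at 99.1 and 30.6, Rel at 144 and 109 and Nfkbia at 728 and 550.1, while Tnfaip3 went the other way, at 264 in cluster 26 and 384 in cluster 31. Cluster 28, with Ube2c among its leading genes, held 18 T cells in day 5 and 262 in day 30. There Tnfaip3 was at 120, Nfkb1 at 71.4, Rel at 65.7, Nfkbiz at 11.7, Nfkbia at 430 and Nfkbie at 22.8, each below its level in clusters 26 and 31. The immediate-early and heat-shock sum was 8869 in the library labelled day 5, compared with 4851 in the one labelled day 30. Summed markers of follicular cells (1006 and 337), dendritic cells (97.0 and 19.2) and macrophages (102 and 51.5) were also lower in day 30. Those of B cells (202 and 329) and endothelial cells (135 and 188) were higher. The part of make-up and of these sums was not tested.

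In B cells Nfkb2 was at 40.7 CPM in the library labelled day 5, compared with 91.9 in the one labelled day 30 (log2 ratio 1.15, 0.43 to 1.98) and Nfkb1 at 111 and 215 (0.94, 0.50 to 1.42). Nfkbiz (0.95) and Nfkbia (0.49) were higher as well, and Rel (-0.37) and Tnfaip3 (-0.56) lower. In fibroblasts Nfkbiz was at 82.3 and 24.6 (-1.71, -2.37 to -1.17), Tnfaip3 at 9.78 and 2.84 with 3 UMIs in the latter (-1.57, -4.10 to -0.17), and Rela at 37.3 and 54.9 (0.57, 0.12 to 0.98). In endothelial cells Nfkbia was at 540 and 390 (-0.47, -0.57 to -0.36) and Nfkbib at 37.6 and 27.3 (-0.45, -0.89 to -0.07), and in neutrophils Nfkbia was at 3549 and 2855 (-0.31, -0.51 to -0.11). The make-up of 2 of these classes also differed: endothelial cluster 1 (Nfkbia at 593 CPM over all libraries) held 1941 cells in day 5 and 3 in day 30, cluster 0 (392) held 1634 and 45, and cluster 5 (384) held 42 and 317. Fibroblast cluster 2 (Nfkbiz at 72.3 and Rela at 36.6) held 1182 and 7 cells, and cluster 3 (58.9 and 48.0) held 216 and 142. The immediate-early and heat-shock sum went from 9417 CPM in day 5 to 5033 in day 30 in endothelial cells, from 8313 to 4871 in fibroblasts, from 18400 to 11274 in neutrophils and from 8280 to 6800.2 in B cells. Sums of the marker lists of other classes moved as well. In B cells the dendritic sum went from 7226 to 2583 and the macrophage sum from 208 to 56.8. The dendritic list includes the MHC class II genes H2-Aa and H2-Ab1, so its sum does not tell dendritic RNA from that of the B cells themselves. In neutrophils the endothelial sum went from 567 to 44.0, the follicular sum from 1806 to 455 and the T cell sum from 144 to 477. The follicular sum went from 1307.5 to 447 in B cells, from 1521 to 386 in endothelial cells and from 809 to 225 in fibroblasts. Other sums rose, such as the T cell sum in fibroblasts (18.0 to 129) and the fibroblast sum in endothelial cells (48.4 to 101). The part of make-up and of these genes was not tested.

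The shares of all genes called in each class, given with the 10 genes above, are the background for the counts of the lists that follow. Of 10 ligands that start the pathway, 6 were higher and 3 lower in T cells, and 4 were higher and 1 lower in dendritic cells. Again 4 were higher and 1 lower in macrophages, led by Il1a (7.11 on the log2 scale), Tnf (5.56) and Il1b (4.14), with Ltb lower (-2.31), while 6 were higher and none lower in neutrophils, led by Il1b (8.75), Tnfsf14 (7.27) and Tnf (4.83). In endothelial cells 1 was higher (Tnfsf10) and 5 were lower, led by Tnf (-4.79), Il1b (-4.60) and Ltb (-4.14). In the follicular class 2 were higher, Lta (4.05) and Tnfsf10 (2.34), and 5 lower, led by Tnf (-5.92), Il1b (-5.52) and Il1a (-3.05). Tnf was at 183 to 573 CPM in macrophages. In the follicular class it was at 0.83 in the library labelled day 5 (8 UMIs) and had no UMI in the other three, where a count of 0, taken as a limit of 3 counts, allows up to 2.94 to 8.16.

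Tnfrsf1a, the receptor of TNF found on most cells, was at 368 to 440.4 CPM in neutrophils and 179.8 to 216 in endothelial cells. It was at 157 to 174 in fibroblasts, 84.7 to 149 in macrophages and 51.1 to 73.9 in the follicular class. These 5 ranges did not overlap, but the follicular range overlapped those of dendritic cells (70.6 to 77.3) and T cells (34.97 to 60.2). B cells were lowest, with a mean of 7.22. Of 12 receptors, 8 were higher and 1 lower in macrophages (Cd14 6.64, Tnfrsf11a 6.34 and Tlr2 3.18, against Il1rap -0.88), and 7 were higher and none lower in neutrophils (Cd14 6.13, Tlr2 5.24 and Tnfrsf1b 4.11). In endothelial cells 3 were higher (Ltbr 2.09, Il1r1 1.82 and Tnfrsf1a 1.21) and 4 lower (led by Cd14, -2.35, Tlr2, -1.64, and Il1rap, -1.24). In follicular cells 4 were higher, led by Il1r1 (2.02), Cd40 (1.49) and Tlr2 (1.13), and 5 lower, led by Tnfrsf1b (-5.53), Tnfrsf13c (-4.92) and Cd14 (-3.86). Of all genes 35.6% were higher and 17% lower there, so the count of higher receptors is near that of all genes. The mean level of Il1r1 was 97.9 CPM in fibroblasts and 70.0 in T cells (4.86 to 212), above 37.1 in follicular and 34.2 in endothelial cells. Cd40 is one of the receptors that feed the alternative pathway of Nfkb2 and Relb, while Map3k14, the kinase of that pathway, was called lower in the follicular class. A link of either to the levels of Nfkb2 and Relb was not tested.

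Of 20 adaptors and kinases, 7 were higher and 3 lower in macrophages (led by Irak4 1.21, Tradd 0.65 and Tab2 0.65, against Birc2 -0.81, Malt1 -0.79 and Traf6 -0.70), and 5 were higher and 1 lower in neutrophils (led by Malt1 1.77, Traf3 1.49 and Bcl10 1.23, against Map3k7 -2.21). Of all genes, 27.5% were higher and 6.61% lower in macrophages and 11.2% and 20.6% in neutrophils. None was higher in endothelial or follicular cells (all genes 30.6% and 35.6%), where 6 and 7 were lower (14.5% and 17%). These were led in endothelial cells by Traf1 (-2.37), Malt1 (-1.21) and Bcl10 (-0.94), and in the follicular class by Ikbkb (-1.62), a kinase of the IκB proteins, Bcl10 (-1.56) and Map3k14 (-1.51), the kinase of the alternative pathway. Of 15 further inhibitors and feedback genes, 6 were higher and 4 lower in macrophages (led by Tnip3 7.19, Nfkbid 1.94 and Tnip2 1.31, against Nkiras1 -1.19, Tax1bp1 -0.78 and Cyld -0.63) and 7 and 2 in neutrophils (led by Nfkbid 3.56, N4bp1 3.33 and Bcl3 3.28, against Otulin -1.42 and Commd1 -1.06). In endothelial cells 3 were higher (Rnf11 0.63, Commd1 0.54 and N4bp1 0.49) and 7 lower (led by Nfkbid -3.13, Zfp36 -1.19 and Bcl3 -1.17). Follicular cells had 1 higher (Tax1bp1 0.47) and 6 lower (led by Nfkbid -2.63, N4bp1 -1.39 and Bcl3 -1.38).

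Of 30 targets of NF-κB, 28 were tested, and 16 were higher and 1 lower in macrophages (led by Ccl3 6.61, Ccl4 6.53 and Cxcl2 6.48, against Csf1 -1.42) and 16 and none in neutrophils (led by Mmp9 11.87, Ptgs2 7.70 and Cxcl2 7.51). In endothelial cells 7 were higher, led by the adhesion molecules Selp (4.05) and Vcam1 (3.46) and by Csf1 (1.78), and 11 lower, led by Bcl2a1d (-6.27), Bcl2a1b (-5.61) and Ccl4 (-4.43). In the follicular class 1 was higher, Sod2 (1.29), the superoxide dismutase of mitochondria, and 11 were lower, led by Ccl2 (-5.20), Ccl4 (-4.41) and Bcl2a1d (-4.29). Bcl2a1b and Bcl2a1d are near-identical copies whose reads the counting can split. In T cells 3 were higher and 13 lower, and in B cells 3 and 10. The medians of the target list were 2.04 in macrophages, 1.99 in neutrophils, 1.22 in dendritic, -1.18 in T, -1.25 in B, -0.27 in endothelial cells, -1.01 in fibroblasts and -1.24 in the follicular class, where those of all genes were 0.24, -1.24, 0.10, 0.27, -0.06, 0.19, 0.19 and 0.27. Of the 15 immediate-early and heat-shock genes, 13 were higher and none lower in macrophages (led by Hspa1a 3.31, Hspa1b 2.57 and Atf3 2.32), and 6 were higher and 5 lower in neutrophils (led by Dusp1 2.41, Atf3 2.06 and Klf6 1.48, against Hsph1 -3.20, Hspa1b -2.41 and Hspa1a -2.09). In endothelial cells 2 were higher (Klf4 0.78 and Jun 0.52) and 6 lower (led by Atf3 -1.51, Klf6 -1.502 and Jund -1.30), and in the follicular class 5 were higher (led by Egr1 0.92, Jun 0.91 and Fos 0.86) and 2 lower (Dusp1 -1.13 and Junb -1.04). Their part in the levels of the NF-κB genes was not tested.

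Over the 29 sums of classes and libraries, which share libraries and depth, the 10 genes were compared with 5008 genes by Pearson's r of log2 levels, as a description with no test. Among themselves r was highest between Rel and Nfkbie (0.89), Nfkb1 and Rel (0.82) and Nfkbie and Tnfaip3 (0.81) and lowest between Rela and Nfkbib (-0.05). The genes most like Rel were Baz1a (0.93), Fau (0.93) and Cd37 (0.92), and those most like Nfkb1 were Baz1a (0.91), Klhl6 (0.87) and Ppp1r18 (0.87). Nfkb2 was closest to Tgif1 (0.85), Dusp2 (0.85) and Rbm38 (0.81), Relb to Tmem243 (0.82), Dusp2 (0.81) and Blnk (0.81), and Rela, with the weakest likeness, to Tet2 (0.70), Kctd12 (0.70) and Tfe3 (0.69). Of the inhibitors, Nfkbia was closest to Tpd52 (0.90), Iqgap1 (0.89) and Lcp1 (0.87), and Nfkbib to Cd74 (0.85), H2-Oa (0.85) and H2-Ab1 (0.81), genes of antigen presentation. Nfkbie was closest to Tgif1 (0.94), Ptk2b (0.92) and Nfkbid (0.92), Nfkbiz to Nlrp3 (0.94), Slc15a3 (0.94) and Lilr4b (0.93), and Tnfaip3 to Csrnp1 (0.95), Selplg (0.92) and Itgb2 (0.91).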

How the data were processed

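Droplet libraries of thyroid cells were aligned by the authors to mm10 with CellRanger, and the deposited values are raw UMI counts per gene and barcode, with no cell filter or normalization. A further deposited table of counts served only for its list of cell barcodes, each assigned to the library with most of its UMIs. The library labelled day 5 held most cells here, whereas the study's methods give most to day 30.

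Cells with 200 to 10000 UMIs, at most 10% mitochondrial and 5% hemoglobin UMIs were kept, and the 6% with the highest Scrublet scores (expected rate 0.06) were removed per library, since its automatic threshold marked 0.037% to 5.49%. They were clustered in scanpy 1.11.5 (3000 variable genes without the NF-κB and immediate-early lists, 30 components, 15 neighbours, Leiden resolution 0.9, no integration), and the 32 clusters were named from fixed markers. Classes were compared with edgeR 4.0.16 (TMM, filterByExpr, quasi-likelihood, library as term, Benjamini-Hochberg per comparison) in R 4.3.3. Standard errors are approximate, from the F statistic. In sums simulated for the follicular class against the others (12005 genes) it recovered 45.7% of 2-fold and 83.5% of 4-fold changes, with 5 false calls. Intervals are exact Poisson, binomial or conditional binomial at 95% and cover counting error only.

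All 10 genes were named in every comparison, with the 3 genes most alike (of those with a mean of at least 30 CPM, on log2 of the level plus 1) and, per pathway list, the 3 called genes with the largest rise and fall. The members and lists were chosen with earlier results of these data known. Alternatives were DESeq2 1.42.0, other scaling, filters, classes by markers per cell, and leaving out libraries.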

Additional observations from a re-analysis of the deposited data

Results flagged for a closer look

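In 60 groups of 4 libraries (a gene in a class), a library was tested for standing apart from the other three by the gap to its nearest neighbour over the whole range, and 3 passed Dixon's 95% critical value, where chance gives about 1 in 20. Nfkbie in T cells was at 46.8 CPM in the library labelled day 5, against 21.2 to 22.7 in the others (gap 0.942 of the range). Nfkbie in follicular cells was at 16.3 in the library labelled day 20, which held 52 follicular cells, against 8.21 to 8.81 in the others (gap 0.927). The same sum stood apart in T cell markers (144 CPM, against 8.71 to 21.4) and in median mitochondrial share (7.58%, against 3.88% to 5.12%), and their part was not tested. Nfkb2 in fibroblasts was at 11.0 in the library labelled day 5, against 15.7 to 16.5 in the others (gap 0.853).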

How the results depend on the processing

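Of 72 calls 53 held in all 14 alternatives, 19 were lost in at least 1 and none changed direction. The library stands as a block in the fit, and without the block 3 calls were lost, among them Nfkb2 in neutrophils (0.77), and 2 values never called changed sign, Nfkbia in B cells (-0.029) and Nfkbib in T cells (-0.034). Counts of genes called moved by over 1.5 times in macrophages (6 to 3 by total UMIs, 3 to 6 leaving out libraries), dendritic cells (8 to 5 in DESeq2 and 4 by total UMIs, 4 to 8 leaving out libraries, 4 where 1 dendritic library was left) and T cells (3 to 6 leaving out libraries). For day 30 against day 5, the count beyond counting error was 2 in neutrophils without the upper UMI limit, from 1000 UMIs, with doublets kept or at most 5% mitochondrial UMIs, and without the upper limit it was 6 in endothelial cells, 5 in fibroblasts and 8 in the follicular class. The cause was not tested.

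Signs changed in 13 results, each called neither way in those settings. By total UMIs these were Nfkb2 in macrophages (-0.0055) and the follicular class (0.050), Rela in endothelial cells (0.035), Nfkbia in B cells (-0.076), Nfkbib in T cells (-0.040) and Rel in the follicular class against endothelial cells and fibroblasts (-0.035). In DESeq2 they were Nfkb2 in T cells (-0.14), Rela in fibroblasts (0.065), Relb in neutrophils (0.30), Nfkbia in B cells (-0.10), Nfkbib in neutrophils (0.043) and T cells (-0.25), and that Rel value (-0.0067). Without the filter on low counts they were that Rel value (-0.12), Relb in neutrophils (0.11) and against the myeloid classes in the follicular class (-0.030), Nfkbia in B cells (-0.0032) and Nfkbib in T cells (-0.030). With classes from markers per cell they were Rel (-0.14) and Relb in neutrophils (0.017), and at resolution 2 Nfkbib in T cells (-0.0014). From 1000 UMIs they were Rel (-0.18), Relb in neutrophils (0.019) and Nfkbia in B cells (-0.017), with doublets kept Rel (-0.28), and at most 5% mitochondrial UMIs Rel (-0.23), Nfkbia in B cells (-0.20) and Nfkbib in T cells (-0.029). Without the upper UMI limit they were Relb in neutrophils (0.035) and against the myeloid classes (-0.11), Nfkbia in B cells (-0.047) and Nfkbib in T cells (-0.0054). Leaving out libraries gave ranges of -0.076 to 0.26 for Nfkb2 in T cells, -0.38 to 0.30 for Rel, -0.10 to 0.0066 for Rela in B cells, -0.045 to 0.12 for Relb in neutrophils and -0.11 to 0.12 against the myeloid classes. The ranges were -0.30 to 0.0022 for Nfkbia in T and -0.10 to 0.20 in B cells, and -0.50 to 0.30 for Nfkbib in neutrophils and -0.13 to 0.037 in T cells.

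Scaling moved the share of all calls that were higher, which was 80.6% in macrophages (70.5% by total UMIs, 60.3% in DESeq2), 84.6% in dendritic (60.3%, 69.7%), 67.9% in endothelial (81.3%, 58.8%), 35.2% in neutrophils (36.7%, 56.5%), 72.7% in T (70.6%, 45.8%) and 59.9% in B cells (54.1%, 45.4%). The median over all genes shifted with it, in endothelial cells from 0.19 to 0.47 and in dendritic cells from 0.10 to -0.23 by total UMIs. In DESeq2 this median was -0.23 in neutrophils in place of -1.24, with 9.83% of all genes lower in place of 20.6%. In T cells it was -0.11 in place of 0.27, with 28.8% lower in place of 12.6%. Neutrophils rest on 53 to 93 cells a library and dendritic cells on 2 libraries.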

Other observations

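Clusters outside the 8 classes are given over all libraries together, as levels in CPM with no test. The cluster with markers of type 2 innate lymphoid cells (443 cells) had Nfkb1 at 966, Nfkbia at 2800, Tnfaip3 at 999.1, Nfkbiz at 428 and Rel at 248. In the cluster with monocyte markers (485 cells) Rel was at 519, Nfkbia at 1720.4, Nfkbiz at 582, Tnfaip3 at 245 and Nfkb1 at 199.7. The cluster with markers of natural killer cells (686 cells) had Tnfaip3 at 304.5, Nfkbia at 761 and Rel at 128. Nfkbia was at 334 in mural cells (627 cells), 264 in a cluster with Schwann cell markers (270 cells), 114 in one with C cell markers (210 cells) and 102 in one with parathyroid markers (54 cells).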
